A study of Mus musculus with 10 samples.

Results

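Genes of the contractile apparatus and the energy supply of skeletal muscle were followed through 10 RNA libraries of mouse skin. They were taken by name from a list of 38 genes. Of these, 30 were found in the deposited table of benzamil and DMSO libraries, 29 in both that table and the one of untreated and DMSO libraries, and 8 in neither (Myh8, Mybpc2, Mylk2, Tnnc1, Des, Actn3, Myoz1 and Cacna1s, not analysed here). The 29 stood among 9779 genes present in both tables, and 21 of them passed the filter on low counts that left 5245 genes to be tested. The mice were C57BL/6, 6 to 8 weeks of age, and carried no transgene or deletion per the labels. The benzamil group (n = 4) received imiquimod, a Toll-like receptor agonist that inflames mouse skin, together with benzamil, which is related to amiloride and inhibits epithelial sodium channels. The DMSO group (n = 4) received imiquimod with DMSO, and the remaining skin was untreated (n = 2). Application was topical and lasted 6 days. All libraries carry the label of ear skin, while the series' design text names the back for the untreated control. Body site and treatment can therefore not be told apart in any comparison with untreated skin.

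Skeletal muscle shortens when myosin heads of the thick filament pull on the actin of the thin filament. Calcium released from the sarcoplasmic reticulum binds troponin and moves tropomyosin aside, and creatine kinase and glycolysis renew the ATP that is spent. In mouse skin this tissue lies as a thin striated sheet, the panniculus carnosus, under the dermis of the trunk, and as small auricular muscles at the ear. How much muscle enters a piece of skin thus depends on where and how deep it is cut, which the labels do not state. In such bulk RNA, fewer muscle fibres and less of each RNA per fibre cannot be told apart.

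The start regions of 4 of these genes are shown because the families of factors known to bind MEF2 sites and CArG boxes drive muscle genes, and because one of them, Mef2c, is among the genes measured below. Each window runs from 250 bases before to 50 bases after the gene's start in RefSeq (GRCm38.p6, the build named mm10), 5′ to 3′ on the gene's strand. Capitals mark matches to a MEF2 site or a CArG box on either strand. The windows are chr8:123894726-123895025 on the minus strand for Acta1, chr11:67199852-67200151 on the plus strand for Myh1, chr11:67237562-67237861 on the plus strand for Myh4 and chr2:76982498-76982797 on the minus strand for Ttn.
Acta1: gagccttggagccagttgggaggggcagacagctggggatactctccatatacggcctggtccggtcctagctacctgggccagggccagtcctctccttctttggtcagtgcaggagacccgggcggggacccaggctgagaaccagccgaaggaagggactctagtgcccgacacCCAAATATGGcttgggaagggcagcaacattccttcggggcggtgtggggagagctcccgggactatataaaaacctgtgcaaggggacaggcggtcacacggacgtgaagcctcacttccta
Myh1: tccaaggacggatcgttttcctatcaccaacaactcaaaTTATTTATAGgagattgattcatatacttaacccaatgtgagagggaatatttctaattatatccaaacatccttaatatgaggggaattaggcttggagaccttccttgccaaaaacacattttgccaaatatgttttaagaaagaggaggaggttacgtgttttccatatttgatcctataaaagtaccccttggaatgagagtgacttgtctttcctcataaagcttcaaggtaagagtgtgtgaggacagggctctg
Myh4: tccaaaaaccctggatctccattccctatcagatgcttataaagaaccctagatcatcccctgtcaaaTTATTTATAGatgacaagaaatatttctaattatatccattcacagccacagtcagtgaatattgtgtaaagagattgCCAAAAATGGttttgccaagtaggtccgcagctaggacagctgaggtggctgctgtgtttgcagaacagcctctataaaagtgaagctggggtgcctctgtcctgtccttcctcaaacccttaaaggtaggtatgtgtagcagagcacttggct
Ttn: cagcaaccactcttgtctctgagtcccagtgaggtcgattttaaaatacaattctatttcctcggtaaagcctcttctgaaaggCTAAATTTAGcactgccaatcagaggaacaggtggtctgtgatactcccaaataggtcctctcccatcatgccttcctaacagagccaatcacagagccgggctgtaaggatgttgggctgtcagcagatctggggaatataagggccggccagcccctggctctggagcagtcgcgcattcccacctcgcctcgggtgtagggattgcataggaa
The CArG box of Acta1 is the capital run in its window, and Myh4 holds a MEF2 site first and a CArG box after it. The capital run of Myh1 and that of Ttn are MEF2 sites. Windows were at hand for 30 of the 38 genes, 34 windows in all. A MEF2 site was matched in 7 of the 34 windows, from 7 genes (Myh1, Myh4, Myh8, Pgam2, Pvalb, Ttn and Xirp2). Of all 32851 windows 1.86% hold one. A CArG box was matched in 4 of the 34 windows, from 3 genes (Acta1, Ldb3 and Myh4), against 1.63% of all windows. The E-box CANNTG was matched in 28 of the 34 windows, from 26 genes, against 72.3% of all windows. TATAAA was matched in 7 of the 34, from 7 genes, against 13.6%. The MEF2 sites of Myh1 and Myh4 overlap a TATAAA on the other strand. These matches describe letters and are not evidence of binding.

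The libraries were shallow. The genes in both tables received 375455, 313294, 207300 and 138440 reads in the benzamil libraries, 935714, 360894, 259262 and 352923 reads in the DMSO libraries, and 74614 and 71144 reads in the untreated libraries, in the order of library number here and below. Levels are given as CPM, the reads of a gene scaled to a common library size by these totals. Fold changes use a further scaling factor per library (TMM), so they can differ from ratios of CPM. It was 0.750 to 1.007 in the benzamil libraries and 1.083 to 1.115 in the DMSO libraries. A single read was worth 1.07 CPM in the deepest library, DMSO 1, and 14.1 CPM in the shallowest, untreated 2. A gene at 0 reads lay under a limit of 3 reads, which came to 3.21 CPM in the deepest and to 42.2 CPM in the shallowest library. Ribosomal RNA genes held 31.0% to 45.7% of the benzamil reads, 22.1% to 28.8% of the DMSO reads, and 34.2% and 38.6% of the untreated reads. Differences below are log2 fold changes ± an approximate standard error. A gene is called where its p from edgeR's quasi-likelihood test, adjusted by Benjamini-Hochberg over the 5245 genes, is under 0.05. Replicates are not said by any label to be different mice, so each p reflects the spread among libraries, which may be technical. The 3 comparisons share libraries and are not independent of each other.

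The 29 muscle genes together took less than 1% of the reads in every library. Their share was 0.401%, 0.350%, 0.184% and 0.149% in the benzamil libraries, 0.108%, 0.160%, 0.322% and 0.0774% in the DMSO libraries, and 0.779% and 0.673% in the untreated ones. Both untreated libraries were above all 8 treated ones. Among treated libraries, benzamil 1, benzamil 2 and DMSO 3 were high and DMSO 4 was lowest, so the benzamil and DMSO groups overlapped. The mean share was 0.271% ± 0.124 in the benzamil group, 0.167% ± 0.109 in the DMSO group (SD, n = 4 each) and 0.726% ± 0.0745 in untreated skin (SD, n = 2). It was 1.62 times as high with benzamil as with DMSO, a difference smaller than 1 SD of either group, and 4.35 times lower with DMSO than in untreated skin. Of the reads outside ribosomal RNA genes, the mean share was 0.424% ± 0.183 with benzamil, 0.225% ± 0.147 with DMSO and 1.14% ± 0.061 in untreated skin. On that base it was 1.88 times as high with benzamil as with DMSO, a difference larger than 1 SD of either group. Ttn alone holds many of these reads, and without it the mean shares were 0.195% ± 0.0821, 0.117% ± 0.0739 and 0.525% ± 0.0628 in the same order of groups. The shares carry no test, since the list was chosen with earlier results of these data known.

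**Figure D1:**
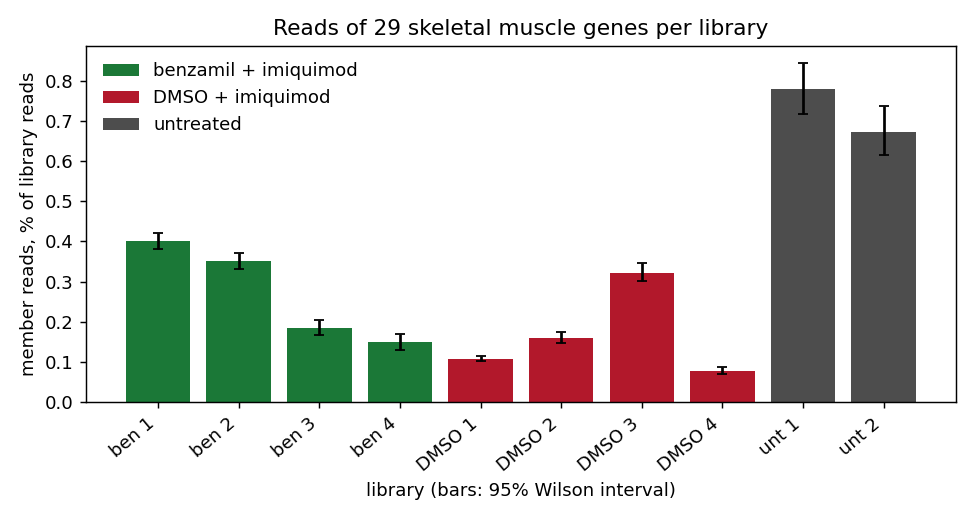
Reads of the 29 muscle genes in percent of all reads of a library (vertical axis), for each of the 10 libraries (horizontal axis, ben for benzamil and unt for untreated), with 95% Wilson intervals that cover counting error only. The untreated libraries stand at 0.779% and 0.673%, and DMSO library 3 at 0.322% lies above benzamil libraries 3 and 4.

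The muscle genes varied together from library to library. Of the 21 tested genes, DMSO library 3 had the highest CPM of its group for 18 and DMSO library 4 the lowest for 14. Benzamil library 1 was highest of its group for 13 genes and benzamil library 2 for 7, while benzamil library 3 was lowest for 9 and benzamil library 4 for 10. These last were also the shallowest treated libraries. Benzamil libraries 1 to 4 lay below both untreated libraries for 15, 16, 19 and 21 of the 21 genes, and DMSO libraries 1 to 4 for 20, 20, 15 and 20. The library DMSO 3 thus stood nearer to untreated skin in its muscle genes than the rest of its group. Such counts were not made over all tested genes, so whether other genes share this order of libraries is not known here.

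**Figure D2:**
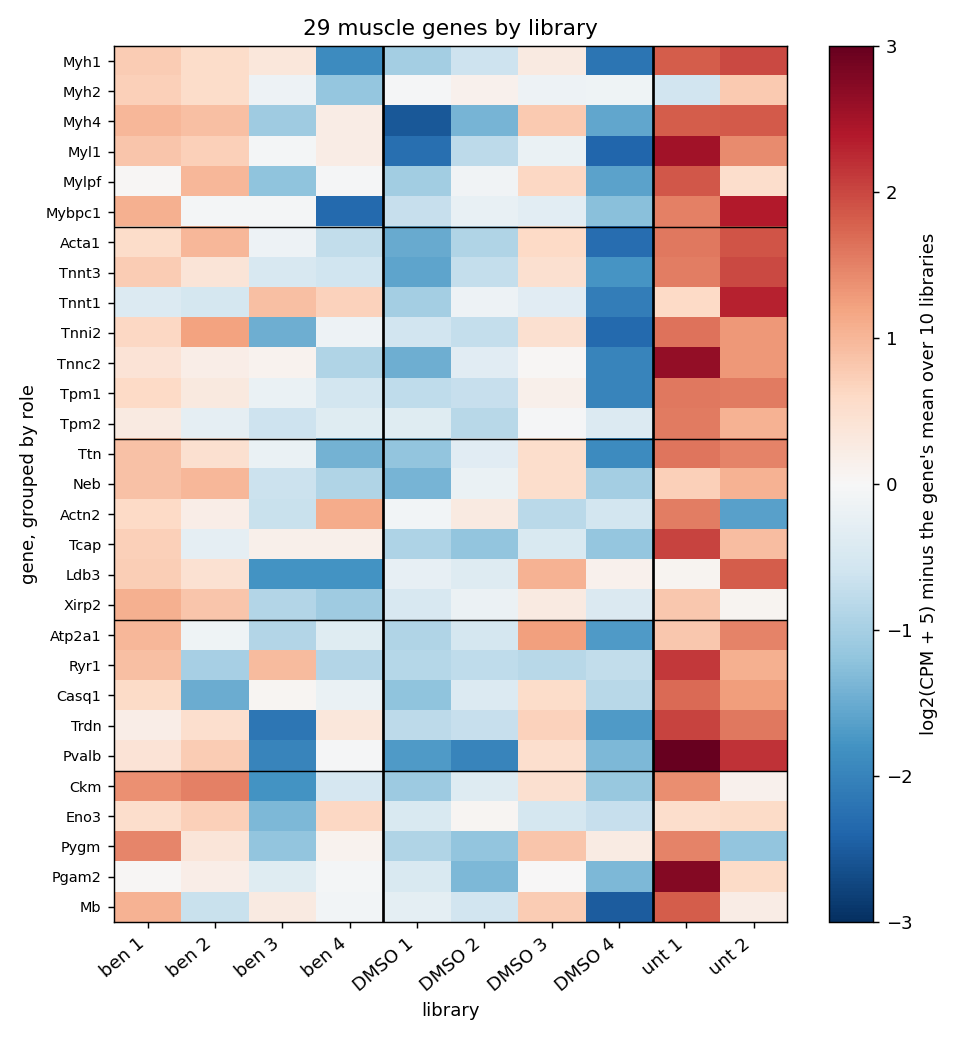
Level of each of the 29 muscle genes (vertical axis, grouped by role) in each of the 10 libraries (horizontal axis), as log2 of CPM plus 5 minus the gene's mean over libraries, with colours cut at 3 in either direction. The columns of benzamil libraries 1 and 2 and of DMSO library 3 are mostly red, and the untreated columns are the darkest red.

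Benzamil-treated skin had higher levels of muscle genes than DMSO-treated skin in this test. Of 21 tested genes 12 rose and 0 fell with benzamil, and all 21 fold changes were positive, where 22.0% of all genes were called, 9.91% higher and 12.1% lower. The 12 were Myh1, Myh4, Myl1, Acta1, Tnnt3, Tnni2, Tnnc2, Tpm1, Neb, Xirp2, Ryr1 and Ckm. Of these, Ckm passed the low-count filter only with the help of the benzamil libraries where it was high. Such a selection favours a rise with benzamil, so the call of Ckm is no support for one. The median log2 fold change was 1.31 over the 21 genes and -0.01 over all genes tested. By role, 3 of 6 thick filament genes, 5 of 6 thin filament genes, 2 of 3 scaffold genes, 1 of 4 calcium handling genes and 1 of 2 energy genes rose. The CPM ranges of the groups were apart for 1 gene only, Myl1, against 5.95% of all genes with benzamil wholly above DMSO and 20.6% with benzamil wholly below.

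The count of 12 depended on single libraries. It was 2 without benzamil library 1, when Acta1 and Myl1 were called, and 3 without DMSO library 1, when Myh1, Myl1 and Tpm1 were. It was 7 without benzamil library 2 and also 7 without DMSO library 4. Leaving out DMSO library 3, which had high muscle genes, gave 16. With library totals alone as scaling the count was 6, all among the 12. Without both shallow benzamil libraries, 3 and 4, it was 14, of which 11 were among the 12. DESeq2's Wald test on the same reads called 2 genes, Myl1 and Tcap, and limma on the deposited log2 values called 4, Acta1, Myh4, Myl1 and Tpm1. Myl1 was called in all 19 alternatives run for this comparison.

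**Figure D3:**
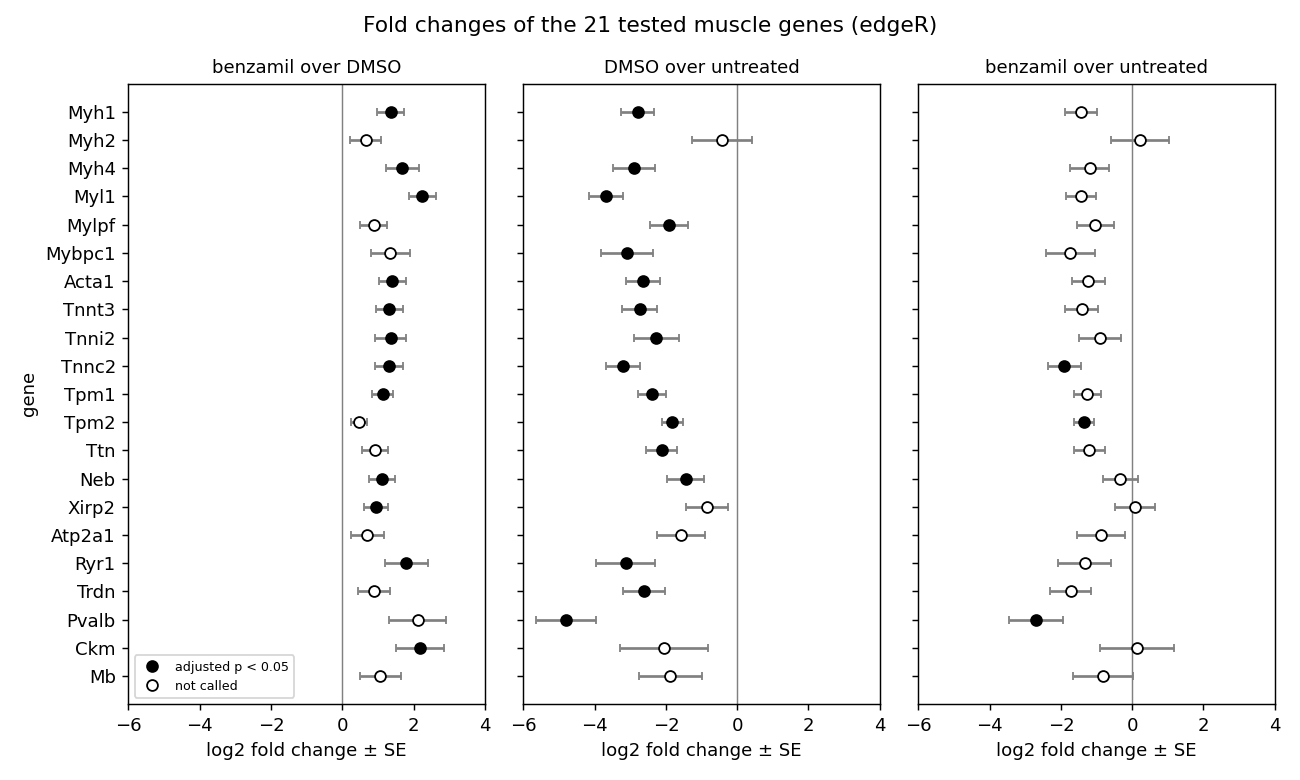
Log2 fold change with its approximate standard error (horizontal axis) of the 21 tested muscle genes (vertical axis) in the 3 comparisons, from edgeR, with filled points for an adjusted p under 0.05. All 21 points lie right of 0 for benzamil over DMSO and left of 0 for DMSO over untreated, where 12 and 16 are filled, and 3 are filled for benzamil over untreated.

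DMSO-treated skin had lower levels of muscle genes than untreated skin, and imiquimod, DMSO and body site cannot be told apart in this. Of 21 tested genes 16 fell and 0 rose, and all 21 fold changes were negative, where 18.4% of all genes were called, 9.93% higher and 8.45% lower. The median log2 fold change was -2.39 over the 21 genes and 0.18 over all genes tested. By role, 5 of 6 thick filament genes, 6 of 6 thin filament genes, 2 of 3 scaffold genes, 3 of 4 calcium handling genes and 0 of 2 energy genes fell. The 5 that were not called were Myh2, Xirp2, Atp2a1, Ckm and Mb. Mybpc1 and Pvalb, counted among the 16, passed the low-count filter only through the untreated libraries, where they were highest. Such a selection favours a fall against untreated skin, so these calls are no support for one. The CPM ranges were apart for 15 genes, all with DMSO below untreated skin. Of all genes 17.0% had DMSO wholly below and 32.0% wholly above. Without untreated library 1 the count was 12, 11 of them among the 16 (Mylpf, Neb, Ryr1, Tnni2 and Trdn were no longer called). Without untreated library 2 it was 15, 13 of them among the 16 (Mybpc1, Neb and Tnni2 were no longer called).

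In benzamil-treated skin a smaller number of muscle genes passed the test against untreated skin. Of 21 tested genes 3 fell (Pvalb, Tnnc2 and Tpm2) and 0 rose in edgeR, where 4.00% of all genes were called, 2.44% higher and 1.56% lower. Of these, Pvalb passed the low-count filter only through the untreated libraries, which favours a fall. At an unadjusted p under 0.05 edgeR had 12 of the 21 lower and 0 higher. The median log2 fold change was -1.23 over the 21 genes and 0.17 over all genes tested. The CPM ranges were apart for 14 genes, all with benzamil below untreated skin. Of all genes 16.0% had benzamil wholly below and 15.7% wholly above. Without untreated library 1 edgeR called 0, with 7 of 23 tested genes at an unadjusted p under 0.05. The count was 2 without untreated library 2, 2 in DESeq2's Wald test, and 8 when only these 2 groups entered the fit. Without both shallow benzamil libraries it was 1, Tpm2.

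In the thick filament, the myosin heavy chains of fast fibres lie side by side on chromosome 11 (mm10, GENCODE M21), Myh2 at 67171027 to 67197517, Myh1 at 67200052 to 67224575 and Myh4 at 67238029 to 67260446, all on the plus strand. Their coding sequences are much alike, so reads may be split between them. Myh1, the heavy chain of type IIx fibres, was at 208, 179, 154 and 28.9 CPM in the benzamil libraries, 57.7, 77.6, 147 and 22.7 CPM in the DMSO libraries, and 442 and 492 CPM in the untreated libraries. Of the benzamil libraries 1 to 3 lay above every DMSO library, library 4 was among the lowest of all, and no treated library reached the untreated ones. Myh1 rose by 1.36 ± 0.37 with benzamil over DMSO (edgeR adjusted p = 0.0103), a call lost without benzamil library 1, and fell with DMSO over untreated (-2.79 ± 0.47, edgeR adjusted p = 0.000164). Myh4, the heavy chain of the fastest fibres, type IIb, was at 237, 223, 53.1 and 137 CPM in the benzamil libraries, 16.03, 41.6, 204 and 36.8 CPM in the DMSO libraries, and 429 and 436 CPM in the untreated libraries. DMSO library 3 was far above the other 3 of its group and above benzamil libraries 3 and 4. Myh4 changed by 1.69 ± 0.46 with benzamil over DMSO (edgeR adjusted p = 0.0106), a call lost without DMSO library 1 or without benzamil library 1. Its difference was -2.89 ± 0.59 for DMSO over untreated (edgeR adjusted p = 0.00143). Myh2, the heavy chain of type IIa fibres, ranged over 7.22 to 39.95 CPM in the benzamil group, 19.3 to 24.9 CPM in the DMSO group and 13.4 to 42.2 CPM in untreated skin. Its groups overlapped in all comparisons, and it passed in none of them (0.65 ± 0.43, -0.43 ± 0.84 and 0.22 ± 0.82 for benzamil over DMSO, DMSO over untreated and benzamil over untreated).

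Myosin light chains brace the lever arm of the myosin head. Myl1 (chromosome 1, 66924295 to 66945404, minus strand) encodes the essential light chain of fast fibres and was at 146, 134, 77.2 and 93.9 CPM in the benzamil libraries, 12.8, 44.3, 69.4 and 11.3 CPM in the DMSO libraries, and 482 and 225 CPM in the untreated libraries. All benzamil libraries were above all DMSO libraries, and all treated ones were below both untreated ones. Myl1 rose by 2.25 ± 0.39 with benzamil over DMSO (edgeR adjusted p = 0.000199) and by 1.79 to 2.73 when 1 library was left out. It fell with DMSO over untreated (-3.68 ± 0.48, edgeR adjusted p = 7.50e-06) and was not called with benzamil over untreated (-1.43 ± 0.43, edgeR adjusted p = 0.0567). Mylpf, the regulatory light chain of fast fibres, was at 98.5, 198, 38.6 and 93.9 CPM in the benzamil libraries, 43.8, 88.7, 150.4 and 28.3 CPM in the DMSO libraries, and 362 and 141 CPM in the untreated libraries. Benzamil library 2 and DMSO library 3 were above untreated library 2, so its groups overlapped everywhere. Mylpf was not called with benzamil over DMSO (0.88 ± 0.39, edgeR adjusted p = 0.104) and fell with DMSO over untreated (-1.91 ± 0.53, edgeR adjusted p = 0.0143). Mybpc1, a myosin-binding protein C known mainly from slow fibres, was at 47.9, 19.2, 19.3 and 0 CPM in the benzamil libraries, 10.7, 16.6, 15.4 and 5.67 CPM in the DMSO libraries, and 67.0 and 127 CPM in the untreated libraries. It was low in all treated libraries and fell with DMSO over untreated (-3.09 ± 0.72, edgeR adjusted p = 0.00418), while its difference with benzamil over DMSO was not called (1.35 ± 0.56, edgeR adjusted p = 0.0812).

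The thin filament is built on Acta1, the alpha-actin of skeletal muscle (chromosome 8, 123891769 to 123894751, minus strand). It was at 253, 345, 154 and 101 CPM in the benzamil libraries, 56.6, 88.7, 262 and 31.2 CPM in the DMSO libraries, and 523 and 647 CPM in the untreated libraries. DMSO library 3 lay above benzamil libraries 1, 3 and 4, and the other DMSO libraries lay below all benzamil libraries. Acta1 rose by 1.41 ± 0.39 with benzamil over DMSO (edgeR adjusted p = 0.0108), a call lost without DMSO library 1 or benzamil library 2. It fell with DMSO over untreated (-2.64 ± 0.49, edgeR adjusted p = 0.000493), and for benzamil over untreated its difference was -1.23 ± 0.47 and not called. Actin genes share much of their coding sequence, so some reads of this gene may come from its relatives.

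Troponin, the calcium switch of the thin filament, has 3 subunits, and the fast-fibre form of each was measured. Tnnt3, the subunit that binds tropomyosin, was at 154, 118, 62.7 and 57.8 CPM in the benzamil libraries, 26.7, 52.6, 127 and 22.7 CPM in the DMSO libraries, and 268 and 365 CPM in the untreated libraries. Again DMSO library 3 was the one of its group that overlapped the benzamil libraries. Tnnt3 rose with benzamil over DMSO (1.32 ± 0.38, edgeR adjusted p = 0.0153), a call lost without DMSO library 1 or benzamil library 1 and with library totals alone as scaling. It fell with DMSO over untreated (-2.74 ± 0.50, edgeR adjusted p = 0.000425). Tnni2, the inhibitory subunit, whose gene lies near Tnnt3 on chromosome 7, was at 77.2, 118, 14.5 and 43.3 CPM in the benzamil libraries, 31.0, 27.7, 69.4 and 5.67 CPM in the DMSO libraries, and 161 and 127 CPM in the untreated libraries. Benzamil library 3 was the low one here, with 3 reads. Tnni2 rose with benzamil over DMSO (1.35 ± 0.43, edgeR adjusted p = 0.0245) and fell with DMSO over untreated (-2.27 ± 0.63, edgeR adjusted p = 0.0135). Its rise with benzamil was called in 5 of 10 fits with 1 library left out and was lost without DMSO library 1, 2 or 4 or benzamil library 1 or 2. Tnnc2, the subunit that binds calcium, was at 95.9, 83.0, 77.2 and 36.1 CPM in the benzamil libraries, 22.4, 55.4, 73.3 and 14.2 CPM in the DMSO libraries, and 469 and 183 CPM in the untreated libraries. Benzamil libraries 1 to 3 were above all DMSO libraries and library 4 was not. Tnnc2 rose with benzamil over DMSO (1.31 ± 0.39, edgeR adjusted p = 0.0183), a call lost without DMSO library 1 or 4 or benzamil library 1 or 3 and with library totals alone. It fell with DMSO over untreated (-3.21 ± 0.47, edgeR adjusted p = 3.89e-05) and fell with benzamil over untreated (-1.90 ± 0.46, edgeR adjusted p = 0.0174).

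Tropomyosins lie along actin, and both measured ones are also made in smooth muscle and other cells. Tpm1 was at 229, 185, 130.2 and 101 CPM in the benzamil libraries, 86.6, 91.4, 166 and 34.0 CPM in the DMSO libraries, and 456 and 449.8 CPM in the untreated libraries. DMSO library 3 was above benzamil libraries 3 and 4, and the treated libraries were all far below the untreated ones. Tpm1 rose with benzamil over DMSO (1.14 ± 0.30, edgeR adjusted p = 0.00755), a call lost without benzamil library 1, and fell with DMSO over untreated (-2.39 ± 0.38, edgeR adjusted p = 0.000101). Tpm2 was at 264, 179, 139.9 and 166 CPM in the benzamil libraries, 168, 119, 212 and 162 CPM in the DMSO libraries, and 643 and 449.8 CPM in the untreated libraries. The treated groups overlapped almost wholly and lay below untreated skin, and DMSO library 4, lowest for most muscle genes, was not low for Tpm2. Tpm2 was the 1 thin filament gene not called with benzamil over DMSO (0.47 ± 0.22, edgeR adjusted p = 0.13). It fell with DMSO over untreated (-1.82 ± 0.28, edgeR adjusted p = 8.32e-05) and with benzamil over untreated (-1.35 ± 0.29, edgeR adjusted p = 0.00743).

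Among the scaffold proteins, Ttn encodes titin, the giant spring that ties the Z-disc to the middle of the sarcomere (chromosome 2, 76703980 to 76982547, minus strand). It was at 1252, 958, 593 and 253 CPM in the benzamil libraries, 298, 532, 987 and 181 CPM in the DMSO libraries, and 2091 and 1926 CPM in the untreated libraries. Benzamil libraries 1 and 2 and DMSO library 3 were high among treated ones and all were below untreated skin. Ttn was not called with benzamil over DMSO (0.92 ± 0.37, edgeR adjusted p = 0.0732) and fell with DMSO over untreated (-2.12 ± 0.44, edgeR adjusted p = 0.00155). Neb encodes nebulin, which runs along the thin filament, and was at 288, 313, 96.5 and 79.5 CPM in the benzamil libraries, 55.6, 133, 224 and 73.7 CPM in the DMSO libraries, and 255 and 323 CPM in the untreated libraries. Benzamil libraries 1 and 2 lay within the untreated range and libraries 3 and 4 did not. Neb rose with benzamil over DMSO (1.12 ± 0.35, edgeR adjusted p = 0.0241) and fell with DMSO over untreated (-1.44 ± 0.51, edgeR adjusted p = 0.0496). The fall of Neb was called in 8 of 19 alternatives, and its rise with benzamil was lost without DMSO library 1 or 4 or benzamil library 1 or 2. Xirp2 encodes an actin-binding repeat protein of striated muscle and was at 144, 121, 33.8 and 28.9 CPM in the benzamil libraries, 46.0, 58.2, 81.0 and 48.2 CPM in the DMSO libraries, and 121 and 70.3 CPM in the untreated libraries. Benzamil libraries 3 and 4 were below every DMSO library, although it was called higher with benzamil (0.95 ± 0.34, edgeR adjusted p = 0.045). That call was lost without DMSO library 1, 2 or 4 or benzamil library 1 or 2, with RLE size factors, with library totals alone and with the replicate block. It did not pass with DMSO over untreated (-0.86 ± 0.59, edgeR adjusted p = 0.323).

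Calcium handling genes had few reads. Ryr1 encodes the calcium release channel of the sarcoplasmic reticulum and was at 37.3, 6.38, 38.6 and 7.22 CPM in the benzamil libraries, 7.48, 8.31, 7.71 and 8.50 CPM in the DMSO libraries, and 93.8 and 42.2 CPM in the untreated libraries. Benzamil libraries 1 and 3 were above all DMSO libraries and libraries 2 and 4 were not. Ryr1 rose with benzamil over DMSO (1.79 ± 0.60, edgeR adjusted p = 0.0333), a call held in 5 of 10 fits with 1 library left out and lost without DMSO library 1, 2 or 3 or benzamil library 1 or 3. It fell with DMSO over untreated (-3.13 ± 0.82, edgeR adjusted p = 0.00972). Trdn encodes triadin, a partner of that channel, and was at 45.3, 57.5, 4.82 and 50.6 CPM in the benzamil libraries, 20.3, 22.2, 65.6 and 8.50 CPM in the DMSO libraries, and 174 and 127 CPM in the untreated libraries. Benzamil library 3, with 1 read, and DMSO library 3 stood apart from their groups in opposite directions. Trdn was not called with benzamil over DMSO (0.89 ± 0.46, edgeR adjusted p = 0.167) and fell with DMSO over untreated (-2.62 ± 0.60, edgeR adjusted p = 0.00344). Pvalb encodes parvalbumin, a calcium buffer of fast fibres, and was at 21.3, 28.7, 0 and 14.4 CPM in the benzamil libraries, 1.07, 0, 23.1 and 2.83 CPM in the DMSO libraries, and 174 and 84.3 CPM in the untreated libraries. The DMSO group held 8 reads in all, 6 of them in library 3, and both untreated libraries were above all treated ones. Pvalb was not called with benzamil over DMSO (2.11 ± 0.81, edgeR adjusted p = 0.0599), fell with DMSO over untreated (-4.81 ± 0.85, edgeR adjusted p = 0.000342) and fell with benzamil over untreated (-2.69 ± 0.76, edgeR adjusted p = 0.0415). This last call was lost in 6 of 10 fits with 1 library left out, those without DMSO library 4, benzamil library 1, 3 or 4 or either untreated library, and with DESeq2 and the replicate block. Atp2a1 encodes the calcium pump of fast fibres and was at 138, 60.6, 33.8 and 50.6 CPM in the benzamil libraries, 33.1, 44.3, 162 and 17.0 CPM in the DMSO libraries, and 121 and 197 CPM in the untreated libraries. DMSO library 3 was the highest treated library and lay above untreated library 1, and the gene passed in no comparison (0.70 ± 0.46, -1.58 ± 0.68 and -0.87 ± 0.66 in the order used for Myh2).

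For energy supply, Ckm encodes the muscle creatine kinase and was at 39.95, 44.7, 0 and 7.22 CPM in the benzamil libraries, 3.21, 8.31, 19.3 and 2.83 CPM in the DMSO libraries, and 40.2 and 14.1 CPM in the untreated libraries. Benzamil libraries 1 and 2, with 15 and 14 reads, were above all DMSO libraries, and library 3 had 0 reads. Ckm rose with benzamil over DMSO (2.18 ± 0.68, edgeR adjusted p = 0.0221), a call lost without DMSO library 1 or 4 or benzamil library 1 or 2. It passed the low-count filter only with the help of benzamil libraries 1 and 2, which favours a rise. With 4 untreated reads in all, its difference for DMSO over untreated was not called (-2.05 ± 1.24, edgeR adjusted p = 0.25). For benzamil over untreated it was 0.13 ± 1.04, which turned to -0.02 with library totals alone as scaling. Mb encodes myoglobin, which stores oxygen, and ranged over 12.8 to 53.3 CPM in the benzamil group, 0 to 42.4 CPM in the DMSO group and 28.1 to 93.8 CPM in untreated skin. Its groups overlapped, and it passed in no comparison.

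The remaining 8 genes of both tables did not pass the low-count filter and were left out of the main test. Without the filter, and in DESeq2's Wald test, Tcap was called higher with benzamil over DMSO. Both of these fits called Tcap, Pgam2 and Tnnt1 lower with DMSO over untreated, and no other of the 8 was called in them. Over the 10 libraries, levels were 0 to 98.4 CPM for Tnnt1, the troponin T of slow fibres, and 0 to 40.2 CPM for Actn2, the alpha-actinin of the Z-disc. Tcap, a titin cap, was at 9.58 to 24.0 CPM with benzamil, 2.77 to 7.71 CPM with DMSO and 28.1 to 67.0 CPM in untreated skin. These levels rested on 17, 8 and 7 reads. Benzamil lay wholly above DMSO for Tcap, as for 5.95% of all genes tested. Ldb3, a Z-disc organiser, ranged over 0 to 56.2 CPM. Casq1, which stores calcium in the reticulum, ranged over 0 to 40.2 CPM. The glycolytic genes Eno3 and Pgam2 ranged over 0 to 15.96 and 0 to 80.4 CPM, and the glycogen phosphorylase Pygm over 0 to 26.8 CPM. DMSO libraries lay wholly below untreated ones for Tnnt1, Tcap, Casq1, Eno3 and Pgam2, on few reads, and overlapped them for Actn2, Ldb3 and Pygm. Of all genes tested, 17.0% had DMSO wholly below. Ckmt2, the creatine kinase of muscle mitochondria, was in the benzamil and DMSO table alone, with 6, 3, 0 and 1 reads in benzamil libraries 1 to 4 and 1, 1, 3 and 2 reads in DMSO libraries 1 to 4.

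The mix of muscle genes also differed between libraries, a comparison chosen after the values were seen. Of the reads of Myh1, Myh2 and Myh4, Myh4 took 48.9%, 51.1%, 23.4% and 79.2% in benzamil libraries 1 to 4, 16.9%, 28.8%, 55.2% and 46.4% in DMSO libraries 1 to 4, and 48.5% and 44.9% in the untreated libraries. Benzamil library 4 was high on 24 reads (95% Wilson interval 59.5% to 90.8%) and DMSO library 1 low on 89 reads (10.5% to 26.0%), and the groups overlapped. Tpm2 took 6.57%, 5.10%, 7.61% and 11.2% of the muscle reads in benzamil libraries 1 to 4, 15.6%, 7.44%, 6.58% and 20.9% in DMSO libraries 1 to 4, and 8.26% and 6.68% in the untreated libraries. It was highest in DMSO libraries 4 and 1, where the muscle genes as a whole were lowest.

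**Figure D4:**
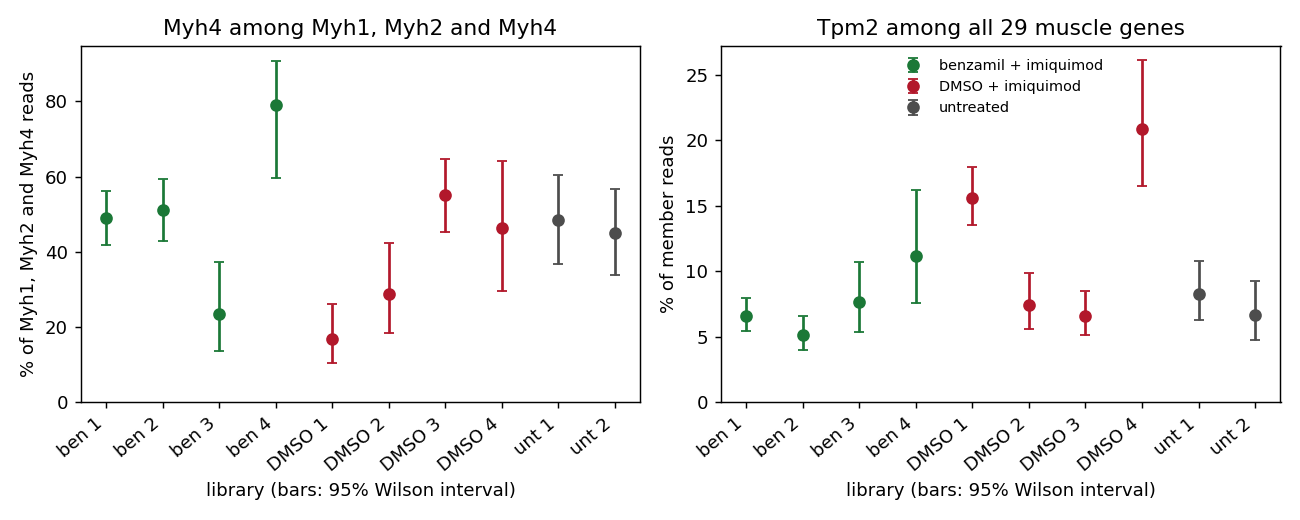
Myh4 in percent of the Myh1, Myh2 and Myh4 reads (left) and Tpm2 in percent of the reads of the 29 muscle genes (right), for each library, with 95% Wilson intervals for counting error. The Myh4 share ranges over 23.4% to 79.2% in the benzamil group and 16.9% to 55.2% in the DMSO group, and the Tpm2 share is highest at 20.9% in DMSO library 4.

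Other muscle genes were read from lists outside these 38. Of 43 other genes listed with the sarcomere 14 were in both tables and 4 were tested. With benzamil over DMSO 1 of them rose, Fbxo32, and 1 fell, Tpm3, a tropomyosin also of non-muscle cells. Fbxo32 encodes the ubiquitin ligase atrogin-1 of muscle wasting, which is not itself a part of the sarcomere. Fbxo32 was 67.2 ± 9.48 CPM in the benzamil group, 22.1 ± 7.66 CPM in the DMSO group and 136 ± 92.5 CPM in untreated skin and changed by 1.97 ± 0.36 with benzamil over DMSO (edgeR adjusted p = 0.000336) and by -2.85 ± 0.51 with DMSO over untreated (edgeR adjusted p = 0.000398), where the call was lost without untreated library 1 (-1.84). Tpm3 was 39.8 ± 18.4 CPM in the benzamil group, 104 ± 52.4 CPM in the DMSO group and 55.9 ± 60.1 CPM in untreated skin and changed by -1.18 ± 0.37 with benzamil over DMSO (edgeR adjusted p = 0.0224), a call lost without DMSO library 1 (-0.67), benzamil library 1 (-1.13), benzamil library 3 (-1.06) or both benzamil libraries 3 and 4. Myom1, a protein of the M-band, was not called with benzamil over DMSO (1.44 ± 0.55, edgeR adjusted p = 0.0625). It fell with DMSO over untreated (-2.76 ± 0.77, edgeR adjusted p = 0.014), and Pdlim5 passed in no comparison. Of 18 other energy genes 9 were in both tables and 4 were tested, of which Pfkm, the muscle phosphofructokinase, fell with DMSO over untreated (-3.25 ± 1.00, edgeR adjusted p = 0.0246) and Aldoa, an aldolase of glycolysis, passed in no comparison. Of 21 other genes of the muscle membrane 1 was tested, the dystrophin gene Dmd, which passed in none (-1.90 ± 0.69, edgeR adjusted p = 0.0533 for DMSO over untreated). Myom1 and Pfkm passed the low-count filter only through the untreated libraries, where their means were highest. Such a selection favours a fall against untreated skin, so their calls are no support for one. The falls of Myom1 and Pfkm lost their calls without untreated library 1 (-2.02 and -3.38), and that of Pfkm also without untreated library 2 (-2.91).

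Of 10 myogenic regulators 3 were in both tables, Mef2a, Mef2c and Mef2d, and Mef2a and Mef2c were tested. Mef2d did not pass the filter and went the other way from these in its means. It was 17.8 ± 11.5 CPM with benzamil, 25.4 ± 7.84 CPM with DMSO and 7.03 ± 9.94 CPM, on 1 read, in untreated skin. Mef2c, a transcription factor of muscle and of other tissues that binds MEF2 sites, was 43.3 ± 16.9 CPM in the benzamil group, 22.4 ± 12.3 CPM in the DMSO group and 199.6 ± 35.8 CPM in untreated skin. It rose with benzamil over DMSO (1.41 ± 0.38, edgeR adjusted p = 0.00984), fell with DMSO over untreated (-3.34 ± 0.47, edgeR adjusted p = 2.54e-05) and fell with benzamil over untreated (-1.92 ± 0.45, edgeR adjusted p = 0.0139). Mef2a, a relative of broader expression, was 216 ± 48.3 CPM in the benzamil group, 184 ± 31.2 CPM in the DMSO group and 357 ± 7.40 CPM in untreated skin and fell with DMSO over untreated (-1.04 ± 0.29, edgeR adjusted p = 0.0131). It was not called with benzamil over DMSO (0.51 ± 0.20, edgeR adjusted p = 0.0743). The rise of Mef2c was lost without DMSO library 1 (1.20) or benzamil library 1 (1.19). Its fall with benzamil over untreated was lost without either untreated library (-2.04 and -1.60), as was the fall of Mef2a with DMSO over untreated (-0.96 and -0.92). The remaining 7 of the list, among them Myod1 and Myog, the regulators that commit cells to muscle, were not among the genes shared by the tables and are not analysed here.

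Markers of other cells also differed between the groups, with fibroblast and keratinocyte markers in opposite directions against untreated skin. Of 10 fibroblast markers 9 were in both tables and 7 were tested, of which 6 fell with DMSO over untreated and 4 with benzamil over untreated. Their summed level was 1100, 1411, 526 and 2131 CPM in benzamil libraries 1 to 4 and 571, 745, 1146 and 932 CPM in DMSO libraries 1 to 4. In untreated skin it was 7914 to 19018 CPM. DMSO library 3 was highest of its group here as in muscle share. Benzamil library 4 was highest of its group here and lowest in muscle share. Col1a1, the main chain of type I collagen, changed by -5.29 ± 0.44 with DMSO over untreated (edgeR adjusted p = 4.02e-09). With benzamil over DMSO 2 of the 7 rose, Sparc (1.66 ± 0.30, edgeR adjusted p = 0.000353) and Dpt (1.58 ± 0.40, edgeR adjusted p = 0.00676). Of 6 keratinocyte markers 5 rose with DMSO over untreated and 0 were called with benzamil over DMSO. Their summed level was 26652 to 38044 CPM in the benzamil group, 32336 to 42106 CPM in the DMSO group and 13577 to 14225 CPM in untreated skin. Of 9 adipocyte markers 3 were tested, and Fabp4 and Car3 fell with DMSO over untreated (-2.66 ± 0.58, edgeR adjusted p = 0.0025 and -1.87 ± 0.60, edgeR adjusted p = 0.0297). Lpl, the highest of them by mean CPM, went the other way and was not called (0.54 ± 0.57, edgeR adjusted p = 0.533). Fabp4 passed the low-count filter only through the untreated libraries, which favours a fall, so its call is no support for one. The summed level of these 3 markers was 93.9 to 207 CPM with benzamil, 87.6 to 167 CPM with DMSO and 141 to 348 CPM in untreated skin. The calls of Fabp4, Car3 and Dpt against untreated skin were lost without untreated library 1 (-2.07, -0.75 and -2.49), and that of Car3 also without DMSO library 1 (-1.59). The part of these cells, and of the depth of the skin taken, in the muscle differences was not tested.

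Smooth muscle, the other contractile tissue of skin, gave little signal. Of its 9 markers 2 were in both tables, Smtn and Synm, and 0 passed the filter, while Acta2, Myh11, Tagln and Cnn1 were not among the genes shared by the tables. The summed level of both was 19.3 to 41.5 CPM in the benzamil group, 14.2 to 33.3 CPM in the DMSO group and 56.2 to 80.4 CPM in untreated skin. Of 9 cartilage markers 3 were in both tables and Sox9 alone was tested, which passed in no comparison. Endothelial and hair follicle markers, 5 and 6 genes, had 0 members in both tables.

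The authors' deposited DESeq2 table gave positive fold changes for 29 of 30 muscle genes for benzamil minus DMSO, with 2 at an adjusted p under 0.05, Myl1 (log2 fold change 1.60, adjusted p = 0.000162) and Tpm1 (0.89, adjusted p = 0.0357). The authors' deposited table for untreated minus DMSO, which runs the other way round, gave positive values for all 29 and 15 at an adjusted p under 0.05. Its lowest adjusted p was that of Tpm2, with a log2 fold change of 1.66. The authors' deposited tables rest on the same libraries and are no further replicate.

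**Figure D5:**
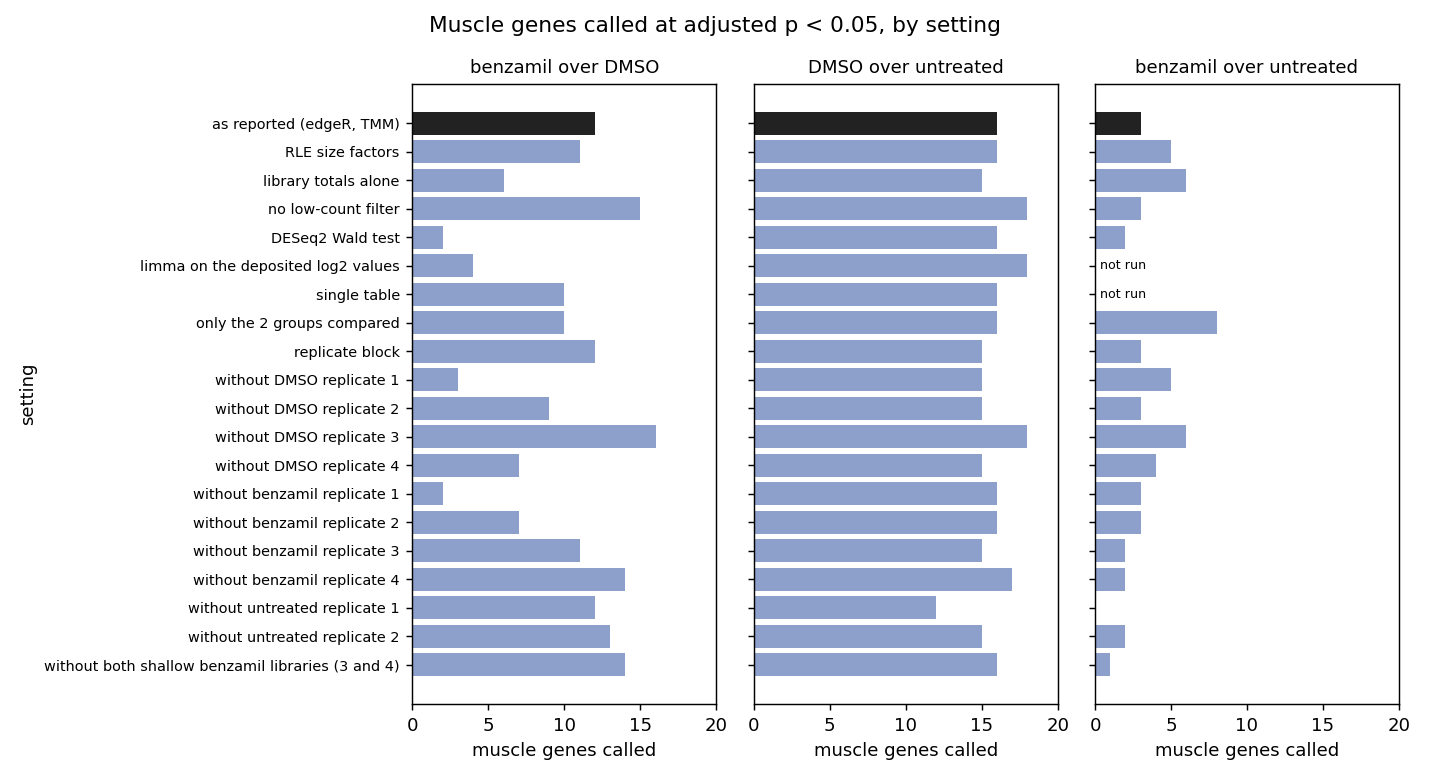
Number of muscle genes called at an adjusted p under 0.05 (horizontal axis) in each of the 3 comparisons, as reported (black) and under each alternative (blue, vertical axis). For benzamil over DMSO the bars run over 2 to 16, for DMSO over untreated over 12 to 18, and for benzamil over untreated over 0 to 8.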

How the data were processed

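RNA of 10 skin libraries was made with a 3' mRNA kit that carries molecular identifiers, from 500 ng per library, per the labels' protocols. The submitters' processing notes list STAR, featureCounts, DESeq2 and the build mm10 (versions not given in the sources used here). No source says whether identifiers were used to collapse reads, so limits and intervals cover counting error only. As reads come from 3' ends, levels are not set per length. The log2 values in 2 tables the authors deposited are named as DESeq2's variance-stabilised values, and each table was normalized on its own. In 2 further tables, deposited as DESeq2 results, each gene has its mean normalized signal, log2 fold change, Wald score and p-values, raw and adjusted. A deposited table of counts names human genes and serves only for 1 description in the closing section.

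The design foresaw a count test on whole reads, although the deposited unit is log2. Inverting the transform gave whole reads within 0.01 for 100% of values in every library, and 39116 of 39116 DMSO values were equal in both tables. The inversion and the test were checked on simulated data. The 9779 genes in both tables entered 1 edgeR fit (4.0.16, R 4.3.3) of all 10 libraries with TMM scaling, and filterByExpr (10 reads, total 15) left 5245, adjusted by Benjamini-Hochberg at 0.05. The common biological coefficient of variation was 0.195. The standard error was taken as the size of the log2 difference over the root of its F value. Genes that passed the filter and were among the 12 with the highest mean CPM or called in a comparison are given per library (19), the others by range. The genes and lists were chosen with earlier results of these data known. Alternatives were other scalings, no filter, limma 3.58.1, DESeq2 1.42.0, single tables, 2 groups alone, a replicate block and libraries left out. Positions come from GENCODE M21 on mm10, start windows from RefSeq.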

Additional observations from a re-analysis of the deposited data

Results flagged for a closer look

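In the DMSO group 1 library lay far from the other 3 for a pair of genes, out of 48 groups of 4 libraries examined. Myh4 reached 204 CPM in DMSO library 3, against 16.03 to 41.6 CPM in the other 3. Pvalb reached 23.1 CPM in the same library, on 6 reads, against 0 to 2.83 CPM. The gap to the nearest library was 0.865 of the group's range for Myh4 and 0.878 for Pvalb, above Dixon's limit for 4 values. Chance passes that limit in about 1 in 20 groups. Both values stand in the library that was highest of its group for 18 of 21 muscle genes. Without it Myh4 changed by 2.80 with benzamil over DMSO, and Pvalb by 3.69.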

How the results depend on the processing

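For benzamil over DMSO the 12 muscle genes called higher became 6 with library totals alone, 2 with DESeq2 and 4 with limma, and 2 to 16 with 1 library left out. All genes called (1155) became 647 to 1413 with 1 library left out and 584 without benzamil libraries 3 and 4, which was chosen after seeing the data. For DMSO over untreated the 16 called lower stayed at 12 to 18 in all alternatives, while all genes called (964) became 2910 with limma and 433 to 979 with 1 library left out. For benzamil over untreated the 3 became 5 with RLE size factors, 6 with library totals alone, 8 with the 2 groups alone, 1 without benzamil libraries 3 and 4, and 0 to 6 with 1 library left out. All genes called there (210) became 137 without benzamil libraries 3 and 4 and 99 to 233 with 1 library left out. The cause was not tested in any of these. Library totals alone moved the median of all genes to -0.26 for benzamil over DMSO and to 0.28 for DMSO over untreated. Limma and single tables were not run for benzamil over untreated, whose libraries sit in tables normalized separately. Outside ribosomal RNA genes the mean muscle share was 0.424% with benzamil, 0.225% with DMSO and 1.14% in untreated skin.

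Fold changes that turned sign belonged to genes not called in that comparison. For benzamil over untreated, Xirp2 became -0.0713 with library totals alone, -0.0273 with DESeq2 and -0.0052 with the 2 groups alone, and Ckm became -0.0197 and -0.0493 with library totals alone and DESeq2. With 1 library left out, Xirp2 ran over -0.32 to 0.60, Ckm over -0.29 to 1.13, Myh2 over -0.32 to 1.37, Mb over -1.42 to 0.37, Fbxo32 over -1.31 to 0.13, Tpm3 over -1.02 to 1.89 and Pdlim5 over -0.000125 to 3.10 in that comparison. For DMSO over untreated Myh2 ran over -0.99 to 0.72 and Pdlim5 over -0.32 to 2.80. An untreated library set the sign in each of these last 2, library 2 for Myh2 and library 1 for Pdlim5. Neb became 0.16 for benzamil over untreated without benzamil libraries 3 and 4, and Aldoa -0.11 for benzamil over DMSO with library totals alone.

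No label says whether the replicate numbers pair the libraries. Same-numbered benzamil and DMSO libraries deviated together with correlations of 0.069, 0.001, 0.041 and 0.068 across genes. Differently numbered ones ran over -0.129 to 0.17. Counting noise in such shallow libraries weakens correlations, so these values cannot decide whether the numbers pair. With the replicate block 12, 15 and 3 muscle genes were called for benzamil over DMSO, DMSO over untreated and benzamil over untreated. Depth limits the low genes: with 1 read worth up to 14.1 CPM in untreated skin, 8 genes of both tables did not pass the low-count filter.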

Other observations

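The deposited count table that names human genes holds reads of the same libraries, so its values are not independent of those above. All 38 muscle genes were found in it by upper-case symbol, 32 of them with reads, among 61533 identifiers. Muscle genes took 0.885%, 0.509%, 0.528% and 0.237% of its reads in benzamil libraries 1 to 4, 0.185%, 0.284%, 0.503% and 0.144% in DMSO libraries 1 to 4, and 1.22% and 1.21% in the untreated libraries. DMSO library 3 was again the highest of its group and DMSO library 4 the lowest, and untreated skin was above all treated libraries. TTN had 142, 66, 33 and 9 reads in the benzamil libraries, 83, 55, 64 and 16 in the DMSO libraries, and 47 and 37 in the untreated libraries. Which genome gave these reads is not given in the sources used here.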
